A study of Homo sapiens with 12 samples.

Results

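The genes described here are the protein-coding genes of human chromosome 3 that were measured in 2 melanoma cell lines, CHL1 and A375, and in a palbociclib-resistant derivative of each. A gene was taken as a member when both count tables listed it, GENCODE release 29 placed it on chromosome 3, and its mean over the 6 libraries of at least 1 line was at least 1 CPM (read counts scaled to library size). Of 1076 annotated genes, 918 were in both tables, 20 were set aside by name (the RPL ribosomal protein and NDUF respiratory chain genes and some single genes), and 178 stayed under 1 CPM in both lines. This left 720 members of 13248 protein-coding genes chosen in the same way over the whole genome: 663 in CHL1, 683 in A375, and 626 in both. Just inside the threshold stood KCNAB1 in CHL1 (mean 1.01 CPM, log2 change 0.10) and ZNF80 in A375 (mean 1.01 CPM, log2 change 0.15), and just outside it ABI3BP in CHL1 (mean 0.982 CPM, log2 change -0.78) and SERPINI1 in A375 (mean 0.992 CPM, log2 change 0.71). The chromosome was selected on its log2 CPM changes in resistant against parental CHL1, which were low, so every value of resistant against parental CHL1 below is a description. Counts of edgeR calls in CHL1 are given in the same way, as counts from which nothing is read. The A375 comparison did not enter the choice and was tested.

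The 4 groups were parental CHL1, resistant CHL1 (named CHL1AR991), parental A375 and resistant A375 (A375AR991), with 3 libraries each. Palbociclib inhibits the kinases CDK4 and CDK6, which release cells from G1 by phosphorylating the retinoblastoma protein. The derivatives had grown under rising drug concentrations for 3 months (CHL1) or 7 months (A375), were maintained in 4 µM palbociclib and spent 72 h without drug before RNA was taken. Each derivative is a single resistant line, and the labels do not say that its libraries came from separate cultures, so a p-value here is set against library-to-library variation that may be no more than technical.

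Chromosome 3 has a short arm, 3p, and a long arm, 3q. The short arm carries several tumour suppressors, among them VHL, the substrate receptor of the ubiquitin ligase that degrades hypoxia-inducible factors, and the chromatin regulators BAP1, PBRM1 and SETD2, and it is often lost in kidney and lung cancers. The long arm carries growth genes such as PIK3CA, PRKCI, ECT2 and SOX2 that are often gained in squamous cancers. Loss of a whole copy of chromosome 3 is a known event in melanoma of the eye. These libraries measured RNA, and DNA copy number was not measured.

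Total counts ran from 25398920 to 29812686 per library, so 3 counts in a library stood for 0.101 to 0.118 CPM, a floor that covers counting error only. Replicate libraries differed by more than counting noise, with a chi-square per degree of freedom of 5.66 to 16.9 between pairs, so no library was a repeat deposit of another. Of 8 melanocyte lineage markers, 5 reached 1 CPM in parental CHL1 and 4 in resistant CHL1, with summed levels of 1050 to 1279 and 1099 to 1281 CPM. In A375 3 reached 1 CPM in parental and 4 in resistant cells (500 to 683 and 378 to 556 CPM summed), and TYR, which encodes the pigment enzyme tyrosinase, was at 0 in all A375 libraries. Of 4 leukocyte markers 1 reached 1 CPM in CHL1, PTPRC, at 8.54 to 9.72 CPM, with CD3E at 0. The 4 summed to 8.96 to 9.87 CPM in parental and 8.71 to 9.62 CPM in resistant CHL1. None reached 1 CPM in A375 (0.305 to 0.590 and 0.498 to 0.593 CPM summed). Of 4 endothelial markers 1 reached 1 CPM in each group (1.53 to 2.51 and 1.21 to 1.71 CPM in CHL1, 5.45 to 12.9 and 8.65 to 14.9 CPM in A375), with PECAM1 at 0 in all. Of 5 keratinocyte and epithelial markers 2 did (18.9 to 19.3 and 21.1 to 23.5 CPM in CHL1, 321 to 409 and 401 to 458 CPM in A375). Fibroblast markers summed to 14.4 to 16.5 CPM in parental and 43.7 to 53.1 CPM in resistant A375 (4 of 5 at 1 CPM or more in both), beside 13.2 to 18.8 and 7.85 to 9.87 CPM in CHL1 (2 of 5 in both, with PDGFRA at 0). The part of these markers in the results below was not tested.

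For a few members the 250 bases before the start of transcription farthest upstream are shown here, from RefSeq on GRCh38.p14, in the direction of transcription. The part of these sequences in the results below was not tested. SHQ1 lies where the running median along the chromosome was lowest, BCL6 had the lowest change in CHL1 among members of 10 CPM or more, FSTL1 and HLTF went the other way, and PDCD10 and SERPINI1 are neighbours that point apart and differed. Capitals mark CCAAT read on either strand (ATTGG on the strand shown), a box bound by the factor NF-Y. The other motifs searched on both strands (the TATA box TATAAA, the E-box CACGTG, the second E-box form CATGTG, the AP-1 site TGACTCA and the E2F-type site TTTCGCGC) were not in these 250 bases.
SHQ1, chr3:72848446-72848695, minus strand: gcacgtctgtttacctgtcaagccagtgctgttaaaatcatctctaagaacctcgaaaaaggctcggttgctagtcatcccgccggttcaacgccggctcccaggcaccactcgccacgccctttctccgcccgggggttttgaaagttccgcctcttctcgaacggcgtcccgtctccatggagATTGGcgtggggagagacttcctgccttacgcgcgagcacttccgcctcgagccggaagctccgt
BCL6, chr3:187745469-187745718, minus strand: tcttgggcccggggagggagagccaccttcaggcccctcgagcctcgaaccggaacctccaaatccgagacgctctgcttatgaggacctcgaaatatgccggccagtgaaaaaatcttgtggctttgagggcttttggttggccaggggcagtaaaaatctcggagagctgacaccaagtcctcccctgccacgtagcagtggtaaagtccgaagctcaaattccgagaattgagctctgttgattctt
FSTL1, chr3:120450993-120451242, minus strand: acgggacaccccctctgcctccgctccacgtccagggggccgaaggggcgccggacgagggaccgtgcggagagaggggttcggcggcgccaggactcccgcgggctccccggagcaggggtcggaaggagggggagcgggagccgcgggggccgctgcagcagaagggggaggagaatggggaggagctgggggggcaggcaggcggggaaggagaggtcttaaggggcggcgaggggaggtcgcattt
HLTF, chr3:149086534-149086783, minus strand: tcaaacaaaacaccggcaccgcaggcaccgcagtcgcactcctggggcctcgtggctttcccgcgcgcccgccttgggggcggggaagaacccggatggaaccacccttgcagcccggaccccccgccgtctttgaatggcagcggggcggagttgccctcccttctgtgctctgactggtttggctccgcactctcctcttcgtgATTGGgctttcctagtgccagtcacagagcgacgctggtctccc
PDCD10, chr3:167734893-167735142, minus strand: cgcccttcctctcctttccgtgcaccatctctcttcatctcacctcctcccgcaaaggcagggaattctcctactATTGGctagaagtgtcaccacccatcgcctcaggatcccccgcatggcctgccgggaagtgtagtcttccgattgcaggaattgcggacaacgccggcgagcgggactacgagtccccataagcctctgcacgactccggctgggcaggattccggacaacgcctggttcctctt
SERPINI1, chr3:167735471-167735720, plus strand: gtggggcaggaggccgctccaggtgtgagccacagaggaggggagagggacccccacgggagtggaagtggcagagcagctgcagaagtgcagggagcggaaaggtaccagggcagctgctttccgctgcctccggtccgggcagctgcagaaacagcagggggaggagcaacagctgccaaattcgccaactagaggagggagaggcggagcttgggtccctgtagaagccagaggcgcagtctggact

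In CHL1 the RNA of nearly the whole chromosome was lower in the resistant cells. The measure was the mean of log2(CPM + 0.5) in the 3 resistant libraries minus that in the 3 parental ones, with CPM normalised by TMM (trimmed mean of M-values). Over the 663 members the median change was -0.33, which is -20.2% on the linear scale, with quartiles of -0.45 and -0.20. The change was below 0 in 604 members (91.1%), against 49.2% of all protein-coding genes of at least 1 CPM. In 516 members (77.8%) all 3 resistant libraries lay below all 3 parental ones, and in 25 (3.77%) above them, against 22.2% and 20.6% of all such genes. edgeR's quasi-likelihood test called 463 members lower and 18 higher at an adjusted p below 0.05, or 69.8% and 2.71% of the members tested, beside 12.1% and 9.11% of all genes tested. With a fold change of at least 2 as well, 9 were lower and 3 higher, where 1.2% and 0.523% of all genes passed. Without resistant replicate 3 the 18 became 11. These CHL1 shares restate how the chromosome was chosen, and nothing is read from them.

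The shift was broad and shallow. The 6 members that changed by -1 or less were BCL6 and 5 genes whose parental mean was under 10 CPM. In all 115 members changed by -0.5 or less, while 489 lay between -0.5 and 0. The 22 other chromosomes had medians between -0.10 (chromosome 13) and 0.11 (chromosome 21), and all genes off chromosome 3 together had a median of 0.01. The 3 resistant libraries gave median changes of -0.33, -0.34 and -0.31 against the mean of the 3 parental ones. The parental libraries, each set against the mean of the others, gave -0.0055, 0.0053 and 0.00081. Each resistant library thus stood apart from each parental one by about the same amount. Chromosome 3 members took 4.64%, 4.67% and 4.63% of the protein-coding counts in parental CHL1 and 3.80%, 3.75% and 3.83% in resistant CHL1. In bulk RNA, fewer cells with a given level and less RNA per cell cannot be told apart.

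**Figure D1:**
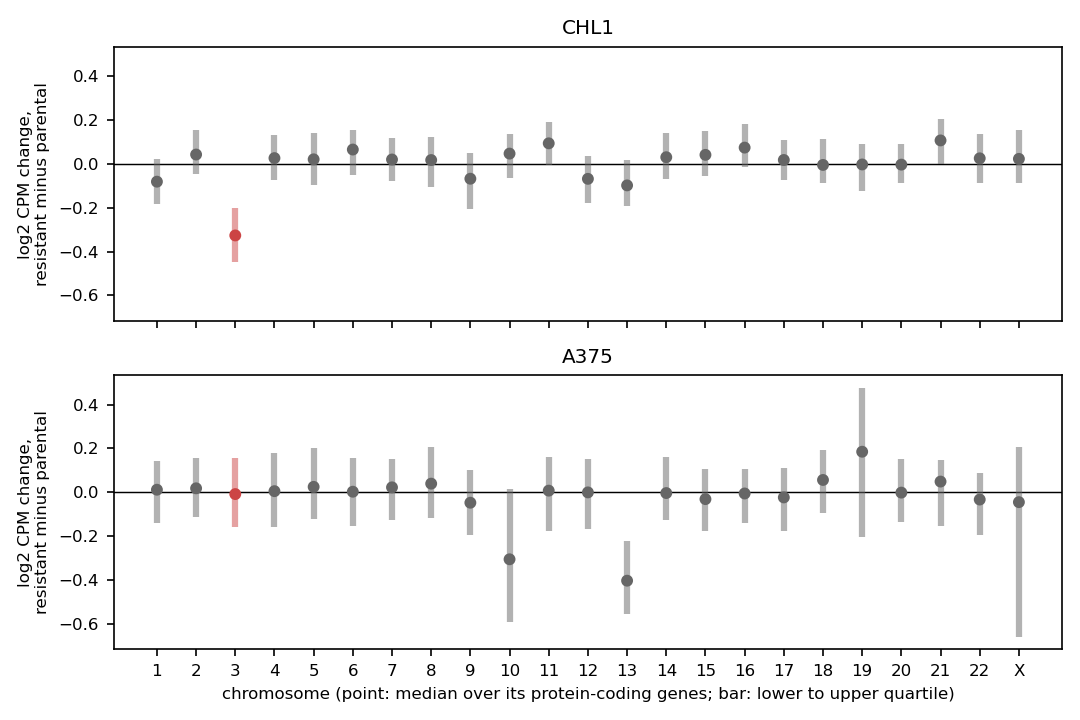
Median change of log2 CPM, resistant minus parental, over the protein-coding genes of each chromosome in CHL1 (top) and A375 (bottom), with bars from the lower to the upper quartile and chromosome 3 in red. Chromosome 3 sits at -0.33 in CHL1, below the other 22 medians, and at -0.01 in A375.

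In A375, whose values did not choose the genes, chromosome 3 did not move as a whole. The median change over 683 members was -0.0086 (quartiles -0.16 and 0.15), beside -0.0022 over the other chromosomes, whose own medians ran from -0.40 on chromosome 13 to 0.18 on chromosome 19. The change was below 0 in 352 members (51.5%, against 50.4% of all protein-coding genes). edgeR's quasi-likelihood test with Benjamini-Hochberg adjustment over 18086 genes called 83 members higher and 119 lower and left 481 uncalled, or 12.2% and 17.4%, beside 13.4% and 14.8% of all genes tested. The 119 became 75 without resistant replicate 3. With a fold change of at least 2 as well, 24 were higher and 12 lower, where 3.91% and 3.44% of all genes tested passed. In 173 members (25.3%) all resistant libraries lay below all parental ones and in 139 (20.4%) above, close to the 24.6% and 23.1% of all protein-coding genes. The 3 resistant libraries of A375 had medians of -0.011, -0.013 and -0.012.

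The share of protein-coding counts from chromosome 3 in A375 was 4.48%, 4.52% and 4.52% in the parental and 4.45%, 4.49% and 4.42% in the resistant libraries. The mean went from 4.51% ± 0.019 to 4.45% ± 0.035 (SD, n = 3), and the groups overlapped (exact permutation test, two-sided, p = 0.2). The smallest p that 3 against 3 libraries allow is 0.1, which was reached with all counted genes as the denominator (4.26% and 4.21%) and without the 5 members with most counts (4.13% and 4.07%). In CHL1 the same share went from 4.65% ± 0.018 to 3.79% ± 0.039 (SD, n = 3), which is not tested.

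Along the chromosome the lower level in CHL1 ran from one end to the other, with a trough at the centromere end of 3p and a shallow part in the middle of 3q. The genes were cut in order into 33 blocks of 20, and the median change was below 0 in all 33. The lowest block was UBA3 to EPHA3 (-0.59, or -33.5%), the last of the short arm. The highest was NMD3 to FNDC3B on 3q (-0.11, or -7.07%), next to PLCH1 to PPM1L (-0.16) and ZIC1 to MME (-0.17). In the lowest block the 3 resistant libraries had medians of -0.58, -0.60 and -0.53, and in the highest -0.08, -0.13 and -0.05. These blocks are the ends of the order by CHL1 change, so the gap between them is a description. The range between the 3 resistant libraries within a block had a median of 0.06 and reached 0.17.

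The median of each block was below 0 in each resistant library, and in 32 of the 33 blocks all resistant libraries lay below all parental ones. For this each parental library was set against the mean of the other parental ones, which widens the parental spread. The exception was PLCH1 to PPM1L, where the resistant medians were -0.05, -0.22 and -0.16 and the parental ones 0.03, 0.05 and -0.07. The short arm had a median change of -0.37 over 320 members (302 below 0) and the long arm -0.29 over 343 (302 below 0). A running median over 21 members was lowest, -0.60, at SHQ1, an assembly factor of the small nucleolar RNA-protein complexes that modify ribosomal RNA. SHQ1 itself went from 16.8, 17.4 and 17.7 CPM to 9.84, 11.6 and 11.5 CPM. The running median was highest, -0.07, at P2RY1, and at no point did it reach 0. Stretches with a running median of -0.25 or less held 551 of the 663 members (83.1%), or 246 at a limit of -0.35, and the first of the 13 ran without a break over 454 members from CNTN6, the first member of 3p, to DNAJC13 on 3q.

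**Figure D2:**
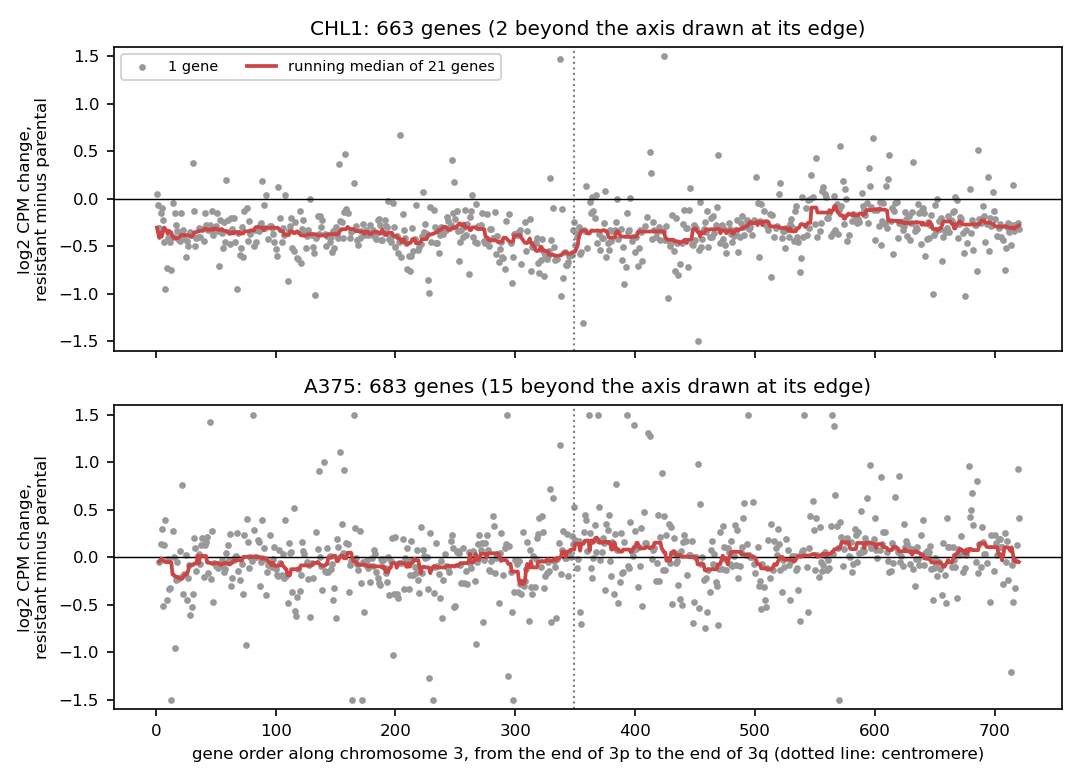
Change of log2 CPM, resistant minus parental, of each member (grey) and its running median over 21 members (red) in gene order along chromosome 3, with the centromere as a dotted line. In CHL1 the running median stays between -0.60 and -0.07, and in A375 it crosses 0 several times between -0.28 and 0.20.

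In the A375 profile such stretches held 3 of the 683 members. Its 34 blocks had medians from -0.26 (WNT5A to PTPRG on 3p) to 0.17 (CRYBG3 to CEP97 on 3q), 19 of them below 0. All resistant libraries lay below all parental ones in 8 blocks and above them in 7, set against the same kinds of means as in CHL1. The short arm had a median of -0.06 (208 of 335 below 0) and the long arm 0.05 (144 of 348 below 0). The blocks at the ends of that range were picked by this same change, so the gap between groups within them is a description. WNT5A to PTPRG had resistant medians of -0.20, -0.20 and -0.28 beside parental ones of 0.06, -0.05 and -0.02. CRYBG3 to CEP97 had 0.12, 0.17 and 0.14 beside -0.05, 0.04 and 0.03. In CHL1 the members of these blocks had medians of -0.38 and -0.33.

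**Figure D3:**
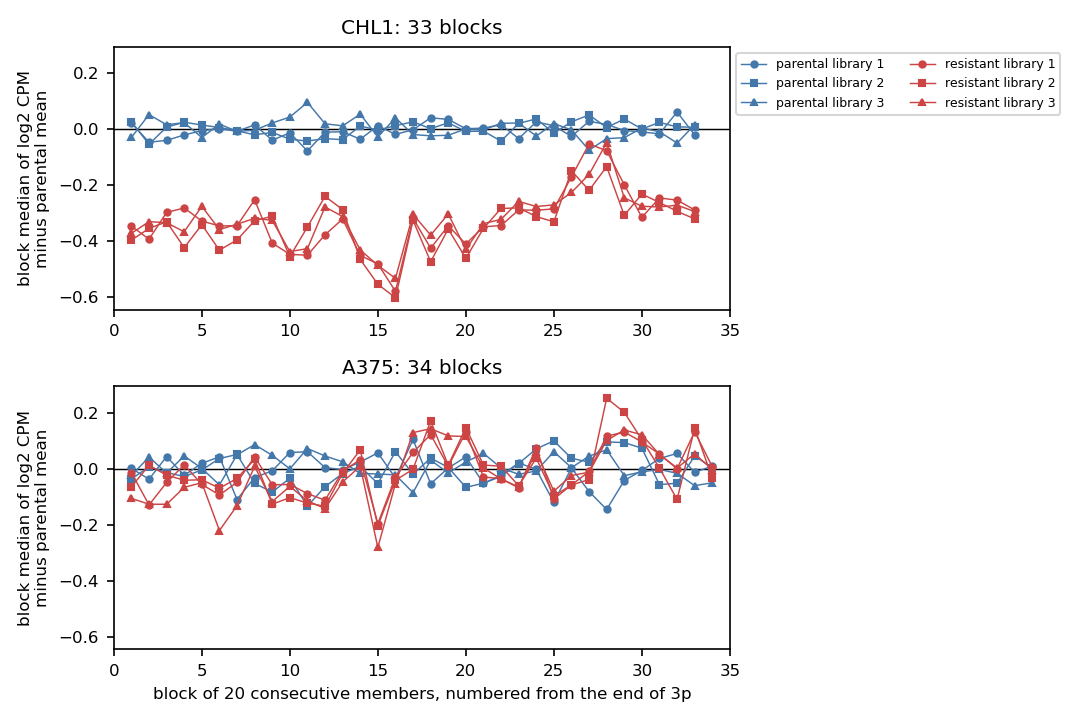
Median of log2 CPM minus the parental mean in each block of 20 consecutive members, for each parental (blue) and resistant (red) library of CHL1 (top, 33 blocks) and A375 (bottom, 34 blocks). For a parental library the mean is that of the other parental libraries, and for a resistant one that of all 3. The 3 resistant CHL1 libraries follow one another along the chromosome and lie below the parental ones in 32 blocks, while in A375 the colours cross.

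The tumour suppressors of chromosome 3 followed the chromosome in CHL1. Of 27 listed, 23 were members, 22 of them with a change below 0, and their median of -0.33 equalled that of all members. BAP1, a nuclear deubiquitinase lost in uveal melanoma and mesothelioma, stood at 104, 95.4 and 103 CPM in parental and 83.0, 86.0 and 82.1 CPM in resistant CHL1, with no overlap. PBRM1, a subunit of the PBAF chromatin remodeller, went from 105, 114 and 106 to 80.9, 78.2 and 80.8 CPM, and SETD2, the histone H3 lysine 36 methyltransferase, from 79.5, 79.8 and 77.8 to 66.2, 60.1 and 62.8 CPM. All resistant libraries of these genes were below all parental ones. VHL (-0.42), the axon guidance receptor ROBO1 (-0.56) and the receptor phosphatase PTPRG (-0.76) were also lower without overlap. RASSF1 (-0.19) and the TGF-beta receptor TGFBR2 (-0.07) had overlapping groups, and FHIT was under 1 CPM in both lines (0.4997 and 0.392 CPM).

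In A375 the same list had 2 genes called higher, 3 lower and 18 uncalled, with a median of -0.08. The share called was 21.7%, beside 28.3% of all genes tested (13.4% higher and 14.8% lower). BAP1 stood at 112, 117 and 109 CPM in parental and 117, 121 and 118 CPM in resistant A375, and its log2 fold change of 0.07 ± 0.05 (SE) was not called (edgeR adjusted p = 0.33). PBRM1 (0.07 ± 0.06, edgeR adjusted p = 0.44) and VHL (-0.15 ± 0.06, edgeR adjusted p = 0.1) were not called either. CTDSPL, a phosphatase of the retinoblastoma protein, fell by 0.58 on the log2 scale (SE 0.09, edgeR adjusted p = 0.0015), and LRIG1, which restrains receptor tyrosine kinases, rose by 0.45 (SE 0.10, edgeR adjusted p = 0.011). LRIG1 shares exon sequence with SLC25A26 on the opposite strand (means in A375 of 11.8 and 20.3 CPM). The libraries did not mark the strand, so some of their reads cannot be told apart. LSAMP, a cell adhesion protein, was the one listed suppressor above 0 in CHL1, at 8.79, 7.89 and 9.08 CPM in parental and 13.3, 12.1 and 11.5 CPM in resistant cells. It was higher in A375 too, from 1.73, 0.962 and 1.07 to 5.09, 1.93 and 4.82 CPM (log2 fold change 1.65 ± 0.39, edgeR adjusted p = 0.012).

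Genes of replication, repair and mitosis were mostly lower in CHL1, with 31 of 33 below 0 and a median of -0.26. ATR, the kinase that signals stalled replication forks, went from 48.9, 53.5 and 52.1 to 40.8, 33.5 and 38.4 CPM. MCM2 of the replicative helicase went from 178, 165 and 171 to 132, 141 and 128 CPM, and TOPBP1, which activates ATR, from 173, 179 and 167 to 149, 144 and 148 CPM. None of these 3 had overlapping groups. SMC4 of condensin (427, 444 and 393 against 417, 396 and 383 CPM) and ECT2, the exchange factor that starts cytokinesis (300.4, 309 and 282 against 292, 263 and 265 CPM), overlapped. HLTF, a DNA translocase that remodels stalled forks, went the other way, from 62.9, 69.8 and 60.8 to 88.7, 88.7 and 83.8 CPM.

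In A375 this list had 6 members called higher, 5 lower and 22 uncalled (33.3% called, beside 28.3% of all genes), with a median of 0.06. HLTF rose there as well, from 66.7, 61.6 and 69.6 to 92.7, 82.8 and 87.2 CPM (log2 fold change 0.41 ± 0.07, edgeR adjusted p = 0.0021). So did NEK4, a kinase linked to the DNA damage response (0.44 ± 0.06, edgeR adjusted p = 0.00071), the polymerase POLQ of end joining (0.35 ± 0.07, edgeR adjusted p = 0.0045), the topoisomerase TOP2B (0.28 ± 0.06, edgeR adjusted p = 0.0067) and the ATPase RUVBL1 (0.27 ± 0.05, edgeR adjusted p = 0.0051). In CHL1 those 4 changed by -0.41, -0.45, -0.50 and -0.46. NEK4 and RUVBL1 share exon sequence with opposite-strand genes of higher level, SPCS1 and SEC61A1. Means in A375 were 44.2 beside 155 CPM and 197 beside 474 CPM. The libraries did not mark the strand, so some of these reads cannot be told apart. ATR fell in A375, from 74.2, 69.5 and 72.7 to 57.6, 56.6 and 56.3 CPM (log2 fold change -0.35 ± 0.05, edgeR adjusted p = 0.0015).

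Among chromatin and transcription factors 35 of 37 members were below 0 in CHL1, with a median of -0.37, and in A375 5 were called higher, 6 lower and 27 uncalled (28.9% called, beside 28.3% of all genes), with a median of -0.01. BCL6, a transcriptional repressor, went from 30.1, 30.3 and 31.9 to 15.4, 15 and 14.5 CPM in CHL1, a change of -1.02, the lowest of all members of 10 CPM or more. HES1, a repressor downstream of Notch, stood at 17.1, 11.3 and 11.7 CPM in parental and 8.89, 6.01 and 8.05 CPM in resistant CHL1. In A375 HES1 rose from 11, 10.7 and 9.53 to 19.7, 16.2 and 19.7 CPM (log2 fold change 0.83 ± 0.11, edgeR adjusted p = 0.00067). The acetyltransferase KAT2B changed by -0.62 in CHL1. RARB, a retinoic acid receptor, was under 1 CPM in CHL1 and rose in A375 from 0.669, 0.308 and 0.610 to 14.4, 9.14 and 12.3 CPM (log2 fold change 4.49 ± 0.27, edgeR adjusted p = 1.4e-05). RARB and TOP2B share exon sequence on opposite strands, and the kit did not mark the strand, so some of their reads cannot be told apart.

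Signalling genes had 36 of 38 members below 0 in CHL1, with a median of -0.27. The small GTPase RHOA, which drives actin stress fibres, went from 385, 395 and 385 to 291, 288 and 290 CPM, and GSK3B, a kinase of the WNT pathway, from 90.7, 85.4 and 84.5 to 67.5, 61.4 and 64.1 CPM. The resistant libraries of both genes lay below all parental ones, and those of RHOA were close to one another. ITPR1, the calcium channel of the endoplasmic reticulum (-0.95), OXSR1, a stress kinase (-0.67), and PRKCD, a protein kinase C (-0.66), were lower still.

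In A375 the signalling list had 2 members called higher, 12 lower and 28 uncalled (33.3% called, beside 28.3% of all genes), with a median of -0.09. RHOA stood at 511, 515 and 550 CPM in parental and 501, 497 and 471 CPM in resistant cells and was not called (log2 fold change -0.10 ± 0.05, edgeR adjusted p = 0.18). WNT5A, a non-canonical WNT ligand, fell from 57.0, 76.9 and 60.5 to 24.7, 27.1 and 28.5 CPM (log2 fold change -1.28 ± 0.11, edgeR adjusted p = 9.6e-05). PRKCD (-0.48 ± 0.08, edgeR adjusted p = 0.003) and MAPKAPK3, a kinase downstream of p38 (-0.53 ± 0.10, edgeR adjusted p = 0.005), fell too. WNT5A was near 0 in CHL1, at most 0.0349 CPM in a library.

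The growth genes of 3q were lower in CHL1 in 26 of 30 members, with a median of -0.25. PIK3CA, a catalytic subunit of PI3 kinase, went from 40.5, 39.9 and 41.5 to 34.4, 32.2 and 35.7 CPM, PIK3CB, another, from 42.9, 44.9 and 44.6 to 34.9, 30.9 and 33.5 CPM, and the transferrin receptor TFRC from 451, 439 and 427 to 384, 346 and 352 CPM. PRKCI, an atypical protein kinase C, had overlapping groups at 103, 105 and 97.0 against 97.4, 95.9 and 103 CPM. The p21-activated kinase PAK2 changed by -0.51. PLD1, which makes phosphatidic acid, and the kinase TNIK were higher without overlap (0.46 and 0.21). SOX2 overlapped, with at most 2.40 CPM, and TP63 was under 1 CPM in both lines.

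In A375 this list had 3 members called higher, 2 lower and 24 uncalled (17.2% called, beside 28.3% of all genes), with a median of 0.03. PRKCI rose from 57.7, 56.8 and 58.2 to 76.0, 64.6 and 68.2 CPM (log2 fold change 0.27 ± 0.07, edgeR adjusted p = 0.016), a call that was lost without resistant replicate 1 (edgeR adjusted p = 0.055). PIK3CB fell from 66.9, 63.3 and 71.4 to 54.0, 48.9 and 53.0 CPM (log2 fold change -0.37 ± 0.07, edgeR adjusted p = 0.0035). The kinase TNK2 fell as well (-0.47 ± 0.07, edgeR adjusted p = 0.0011).

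**Figure D4:**
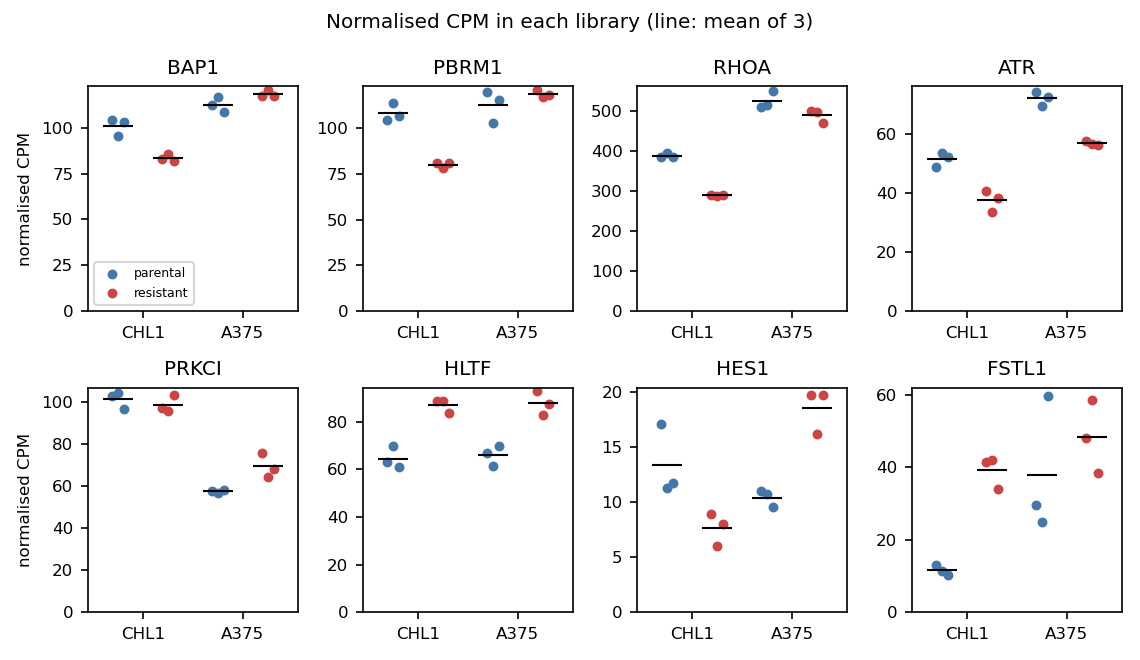
Normalised CPM of 8 members in each parental (blue) and resistant (red) library of CHL1 and A375, with the mean of 3 as a line and every axis from 0. BAP1, PBRM1, RHOA and ATR are lower in resistant CHL1 without overlap, PRKCI overlaps there, and HLTF and FSTL1 are higher, while HES1 is lower in resistant CHL1 and higher in resistant A375.

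Adhesion, matrix and surface genes held the largest exceptions. In CHL1 23 of 31 members were below 0 (median -0.29) and 8 above. FSTL1, a secreted glycoprotein, went from 13.1, 11.5 and 10.3 to 41.4, 42.1 and 34.1 CPM, a change of 1.71, the highest of all members. Its A375 values overlapped, at 29.5, 24.9 and 59.5 against 48.2, 58.5 and 38.5 CPM (log2 fold change 0.35 ± 0.29, edgeR adjusted p = 0.43), and without parental replicate 3 it was called (0.83, edgeR adjusted p = 0.0072). SERPINI1, the serine protease inhibitor neuroserpin, went from 22.3, 19.1 and 19.1 to 33.4, 30.1 and 31.4 CPM in CHL1. The protease ADAMTS9 (-0.68) and the laminin chain LAMB2 (-0.60) were lower, as was the iron-binding surface protein MELTF, from 329, 314 and 359 to 223, 255 and 237 CPM.

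In A375 the adhesion list had 8 members called higher, 8 lower and 15 uncalled, or 51.6% called, beside 28.3% of all genes tested, with a median of 0.08. COL8A1, a short-chain collagen, rose from 9.95, 8.39 and 10.6 to 84.4, 72.8 and 58.3 CPM (log2 fold change 2.90 ± 0.15, edgeR adjusted p = 6.3e-06). The surface protein TMEM158 rose from 7.04, 5.58 and 9.11 to 21.4, 20.7 and 22.8 CPM (1.58 ± 0.16, edgeR adjusted p = 0.00015). MME, the peptidase neprilysin, fell from 7.24, 6.23 and 17.8 to 1.15, 1.13 and 1.31 CPM (-3.12 ± 0.42, edgeR adjusted p = 0.00076), and MELTF fell from 146, 122 and 119 to 56.7, 47.5 and 62.2 CPM (-1.22 ± 0.11, edgeR adjusted p = 0.0001). The sum of the fibroblast markers was higher in resistant A375 too, as given above. LUM, COL1A2 and PDGFRA were higher without overlap, while DCN and COL1A1 had overlapping groups. The part of these markers in the values of the list was not tested.

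Mitochondrial and metabolic genes were below 0 in 42 of 44 members in CHL1 (median -0.33). SUCLG2, a subunit of the GTP-forming succinyl-CoA ligase, went from 33.9, 31.2 and 35.1 to 18.1, 19.3 and 19 CPM, and the glycogen branching enzyme GBE1 changed by -0.70. In A375 2 members were called higher, 8 lower and 34 uncalled (22.7% called, beside 28.3% of all genes, median -0.05). SUCLG2 fell there from 97.8, 96.5 and 99.2 to 79.3, 74.5 and 79.6 CPM (-0.33 ± 0.05, edgeR adjusted p = 0.0017). IMPDH2, the rate-limiting enzyme of guanine nucleotide synthesis (-0.34 ± 0.05, edgeR adjusted p = 0.00071), and the carnitine carrier SLC25A20 (-0.45 ± 0.09, edgeR adjusted p = 0.0064) fell as well. They changed by -0.33 and -0.57 in CHL1.

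Genes of translation, RNA and protein turnover were below 0 in 46 of 49 members in CHL1 (median -0.32), led by the deubiquitinase USP19 (-0.74), the ubiquitin ligase receptor DCAF1 (-0.65) and UBA3, which activates NEDD8 (-0.60). In A375 4 members were called higher, 3 lower and 42 uncalled (14.3% called, beside 28.3% of all genes, median 0.01). The mitochondrial leucyl-tRNA synthetase LARS2 rose there (0.31 ± 0.06, edgeR adjusted p = 0.0043) and PPP2R3A, a regulatory subunit of protein phosphatase 2A, fell (-0.53 ± 0.08, edgeR adjusted p = 0.0017). In CHL1 LARS2 changed by -0.32 and PPP2R3A by -0.28.

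Vesicle traffic and cytoskeleton genes were below 0 in 37 of 38 members in CHL1 (median -0.37), such as TMF1, a Golgi coiled-coil protein (-0.63), and BRK1 of the actin-nucleating WAVE complex (-0.50). The list also holds ACTR8, a nuclear actin-related protein (-0.74). In A375 2 were called higher, 4 lower and 33 uncalled (15.4% called, beside 28.3% of all genes, median -0.02). IQCB1, a ciliary protein, rose in A375 (0.32 ± 0.08, edgeR adjusted p = 0.014) and changed by -0.45 in CHL1. Interferon and immune genes were the smallest list, with 14 of 16 members below 0 in CHL1 (median -0.33). The neighbours PARP9 (-0.80) and DTX3L (-0.69), which form one complex, and PARP14 (-0.46) were lower, while PLSCR1, an interferon-induced scramblase, overlapped. PARP9 and DTX3L share exon sequence on opposite strands. In A375 4 were called higher, 5 lower and 7 uncalled (56.2% called, beside 28.3% of all genes, median -0.05). PARP14 (-0.52 ± 0.10, edgeR adjusted p = 0.0039) and the IL-17 receptor chain IL17RC (-0.62 ± 0.11, edgeR adjusted p = 0.0031) fell.

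**Figure D5:**
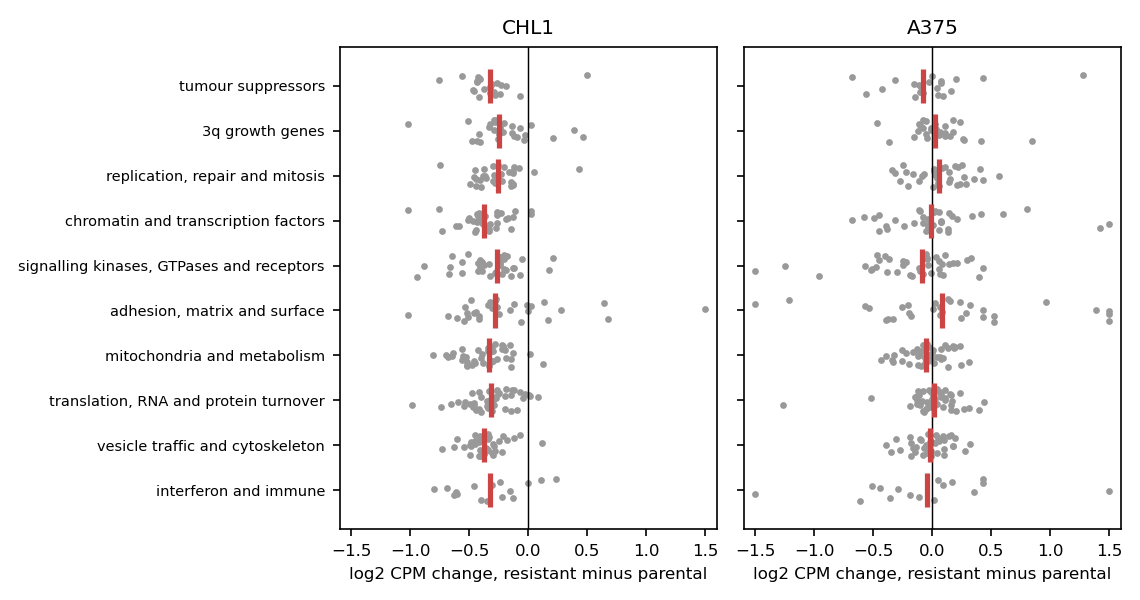
Change of log2 CPM, resistant minus parental, of each member of the 10 functional lists (grey, drawn at the edge beyond 1.5) with the list median (red), in CHL1 (left) and A375 (right). The medians lie between -0.37 and -0.25 in CHL1 and between -0.09 and 0.08 in A375.

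All 10 lists thus had medians between -0.37 and -0.25 in CHL1, close to the -0.33 of all members, whatever the function of their genes. The other members at the low end in CHL1 were PLCL2, a catalytically inactive phospholipase C-like protein (31.3, 29.1 and 27.4 to 15, 14.7 and 14.9 CPM), C3orf52 (-0.89), the guidance receptor ROBO2 (-0.83), the junction scaffold MAGI1 (-0.78) and the actin bundler PLS1 (-0.77). The other members at the high end were C3orf18 (0.41), the neuronal adhesion protein SLITRK3 (119, 113 and 118 to 146, 140 and 152 CPM), transferrin, TF (140, 153 and 161 to 176, 187 and 170 CPM), and SH3BP5 (0.20). PDZRN3, a ubiquitin ligase, was higher without overlap at under 10 CPM (1.47). Of the 10 highest members without overlap and with a mean of 10 CPM or more in the higher group, 8 lay on 3q, as did 343 of all 663 members. Some of these 10, among them LSAMP and SH3BP5, reached that level only in the resistant cells, where they were high. The 8 is therefore a description.

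Other members with large changes in A375 had at least 10 CPM in the higher group, and some, such as CDCP1, only there. CDCP1, a transmembrane substrate of SRC kinases, fell from 13, 10.4 and 19.2 to 2.20, 1.73 and 1.57 CPM (-2.95 ± 0.25, edgeR adjusted p = 7.3e-05), and IL17RD, a brake on FGF signalling, from 24.7, 25.9 and 18.8 to 7.29, 6.45 and 5.79 CPM (-1.83 ± 0.14, edgeR adjusted p = 5e-05). The cadherin CELSR3 (-1.09), the phosphatase PPM1M (-0.94), the monoglyceride lipase MGLL (-0.72), the histidine hydroxylase RIOX2 (-0.71) and PLS1 (-0.69) fell too, with edgeR adjusted p of at most 0.0094. Rising members were the sulfotransferase CHST2 (2.08 ± 0.15), the matrix protein ABI3BP (2.16 ± 0.17), the neuropeptide receptor VIPR1 (0.99 ± 0.21), the p53-induced zinc finger gene ZMAT3 (0.86 ± 0.06) and the ubiquitin ligase DZIP3 (0.79 ± 0.08), with edgeR adjusted p of at most 0.0074. PDZRN3 was called higher (1.12 ± 0.34, edgeR adjusted p = 0.036), a call lost with DESeq2 (adjusted p = 0.094) and without parental replicate 2 or any 1 resistant replicate (edgeR adjusted p of 0.057 to 0.11). In CHL1 MGLL was higher without overlap (0.47), CELSR3 and PPM1M overlapped, and RIOX2 (-0.55) and PLS1 (-0.77) were lower.

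Set side by side, the direction in CHL1 said little about that in A375. Of the 626 members of both lines, 313 were below 0 in both, 267 below in CHL1 and above in A375, 18 the reverse, and 28 above in both. Across these genes, which share libraries and are not independent replicates, Pearson's r was 0.17 and Spearman's rho 0.16. Cut into 4 equal sets by the CHL1 change, lowest first, the members had CHL1 medians of -0.54, -0.38, -0.28 and -0.10 and A375 medians of -0.07, -0.02, -0.02 and 0.06.

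Before any drug the lines already differed in these genes. In normalised CPM over all 12 libraries, parental CHL1 stood below parental A375 by a median log2 difference of -0.41 over 307 members of 3p and above it by 0.33 over 319 of 3q, beside 0.08 over 10938 genes of the other chromosomes. For resistant CHL1 against parental A375 the differences were -0.74 on 3p and 0.07 on 3q, beside 0.08 elsewhere. The other chromosomes, each taken whole, ranged from -0.23 (chromosome 5) to 0.62 (chromosome 22) in the parental comparison. Chromosome 3 taken whole lay within that range, at -0.11 with 46.3% of its members above 0. Single arms of other chromosomes were not compared.

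The lower level in CHL1 depended little on how strongly a gene was expressed, on its length or on overlap with other genes. Split into 3 equal sets by mean CPM, members of 1.01 to 15, 15.1 to 50.1 and 50.6 to 2232 CPM had median changes of -0.31, -0.34 and -0.33, and 3 sets by exon length -0.32, -0.32 and -0.33. The 246 members with exons that overlap a listed gene of the opposite strand had a median of -0.31 and the rest -0.33. Other transcripts of the chromosome gave mixed values: 16 long non-coding RNAs had a median of -0.34 and 13 antisense RNAs -0.16, while 46 pseudogenes had -0.0026, beside 0.058, 0.088 and 0.0044 for the same types on other chromosomes. Pseudogenes can share reads with a parent gene elsewhere, and the part of this in their values was not tested. All 75 transcripts of the 3 types in CHL1 had a median of -0.09. The 52 of them without exon overlap with the other strand had -0.06. Reads of overlapping exons on opposite strands cannot be told apart in these libraries. In A375 the 3 types had medians of -0.04, -0.05 and -0.02.

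Neighbours that start within 1000 bases of each other and point apart differed less, by median, than consecutive members did. This difference was not tested. In CHL1 25 of 27 such pairs had both genes below 0, where 91.1% of all members were below 0. The absolute difference within a pair had a median of 0.12, beside 0.16 between all 662 consecutive members. In A375 5 of 25 pairs were both below 0 and 12 both above, where 51.5% of all members were below 0. The median differences there were 0.17 beside 0.26, and the widest within a pair was 0.81. PDCD10 and SERPINI1, whose upstream sequences are printed above, differed most in CHL1: PDCD10, a gene mutated in cerebral cavernous malformation, stood at 75.3, 73.1 and 72.6 CPM in parental and 71.2, 67.4 and 69.5 CPM in resistant cells, a change of -0.09 beside 0.64 for SERPINI1. MST1 and RNF123 were the other pair with opposite signs (0.07 and -0.35).

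Promoter composition varied little with the size of the change. RefSeq windows of 300 bases (250 before and 50 after the start farthest upstream) were found for 636 of the 720 members and 587 of the 663 in CHL1. The CHL1 members had a median GC content of 65.0% and 26 CpG sites per window, beside 58.3% and 14 over all 27326 windows of the table. In 4 equal sets from the lowest change to the highest, GC content was 66.0%, 66.7%, 64.0% and 64.3%. CCAAT on either strand was in 27.9%, 37.4%, 38.4% and 35.4% of the windows, beside 35.7% of all, TATAAA in 6.80%, 5.44%, 6.85% and 7.48%, beside 12%, and the E-box CACGTG in 8.84%, 12.2%, 10.3% and 8.16%, beside 7.41%. The E-box CATGTG was in 10.2%, 7.48%, 7.53% and 7.48% (all windows 11.3%), the AP-1 site TGACTCA in 2.04%, 0.680%, 3.42% and 3.40% (4.90%), and the E2F-type site TTTCGCGC in 0%, 0.680%, 2.05% and 1.36% (0.538%). A match is only a string of letters in the window and does not show that a factor binds there.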

How the data were processed

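The 12 libraries were made without strand information, per the labels' protocols. CASAVA 1.8.2, cutadapt 1.7, TopHat2, HTSeq 0.5 and limma are named in the submitters' processing notes. The values the authors deposited are raw read counts per Ensembl gene in 1 table for each line (33932 genes listed for A375, 32478 for CHL1, 29735 in both), and their genome build and annotation are not given in the sources used. Genes were placed and ordered by GENCODE release 29, and no coordinates of it are printed. Counts were filtered with filterByExpr (minimum count 10), scaled by TMM and tested within each line with edgeR 4.0.16 (quasi-likelihood, R 4.3.3), with Benjamini-Hochberg adjustment over all genes tested and a threshold of 0.05. DESeq2 1.42.0 was an alternative, with RLE size factors, other pseudocounts (0.1 and 1, in place of 0.5 CPM), no filter, a minimum of 5 CPM, other windows and limits, a replicate block, and each library left out in turn. The fits were tested on simulated data. Medians, blocks, promoters and figures came from Python 3.11.15 (numpy 2.4.6, pandas 2.3.3, scipy 1.17.1, matplotlib 3.10.9). Named genes are a panel of 27 known genes, the 10 lowest and 10 highest members per line without overlap and with a mean of at least 10 CPM in the higher of the 2 groups (so some passed only through the group where they are high), the ends of stretches and blocks, and up to 4 members per list with the largest change. PDCD10, MST1, RNF123, P2RY1, KCNAB1 and ZNF80 fall outside this rule and were chosen after their values were seen. The members, the lists and the rules were chosen with earlier results of these data known, and lists can share genes.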

Additional observations from a re-analysis of the deposited data

Results flagged for a closer look

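In 12 of 35 named members that were tested in A375, belonged to both lines and had at least 10 CPM in the higher group of each, all 3 resistant libraries lay below all parental ones in CHL1 and above them in A375, and the difference between the lines was not tested. Over all 626 members of both lines 88 did so (14.1%). Of all protein-coding genes 22.2% lay below without overlap in CHL1 and 23.1% above in A375, and the named members were partly picked for large changes. The chromosome was chosen for low values in CHL1, so that side of each difference is not independent. The A375 change minus the CHL1 change, in log2 CPM, was 1.56 for HES1, 1.19 for MAGI1, 1.11 for ZMAT3, 1.02 for DZIP3, 0.85 for LRIG1, 0.84 for NEK4, 0.79 for POLQ, 0.78 for TOP2B, 0.76 for IQCB1, 0.73 for RUVBL1, 0.63 for LARS2 and 0.34 for BAP1. Of these only BAP1 was not called in A375 (edgeR quasi-likelihood test, adjusted p = 0.33). NEK4, RUVBL1, LRIG1 and TOP2B share exon sequence with genes of the opposite strand, as given above. The part of this overlap in their values was not tested.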

How the results depend on the processing

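In CHL1 the median change lay between -0.332 and -0.320 with 1 library left out, and the other settings gave no reversal. With a library left out, 402 to 442 members were called lower (463 with all) and 11 to 18 higher (18 with all, 11 without resistant replicate 3). The median of 3p was -0.378 with a pseudocount of 0.1, -0.363 with 1, -0.364 with plain CPM and -0.374 to -0.362 with a library left out. Members in low stretches numbered 246 at a limit of 0.35 and 530 to 576 with a library left out. The share of counts differed by -0.813 percentage points with all counted genes as the denominator, -0.762 without the 5 members with most counts, and -0.869 to -0.832 with a library left out.

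In A375 the median change was 0.0048 with plain CPM, a reversed sign, -0.0054 with RLE size factors, -0.019 for members of at least 5 CPM and -0.0197 to -0.00087 with a library left out; the cause was not tested. The 3p median was -0.045 with plain CPM, and the 3q median 0.058 with plain CPM, 0.025 for members of at least 5 CPM and 0.0356 to 0.0467 with a library left out. With a library left out 59 to 85 members were called higher and 75 to 103 lower (fewer samples). Members in low stretches, 3 in the main setting, numbered 6 with a pseudocount of 0.1, 0 with 1, 1 for members of at least 5 CPM, 10 and 0 with windows of 11 and 41, 33 and 0 at limits of 0.15 and 0.35, and 0 to 6 with a library left out.

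With the replicate block 125 members were called higher and 149 lower in A375, and 20 higher and 485 lower in CHL1. Same-numbered libraries did not pair in every case: their deviations correlated at 0.271, 0.0038 and 0.110 in CHL1 and at 0.412, 0.401 and -0.028 in A375. Differently numbered libraries correlated at -0.201 to 0.112 in CHL1 and at -0.479 to 0.129 in A375. Pairing of some of the libraries, such as A375 numbers 1 and 2, was not tested. Of 48 named genes tested in A375, 43 were called, beside 29.6% of all A375 members and 28.3% of all genes tested. Many were named for a large change in A375, so this count and the counts of kept calls describe the named genes only. Settings other than leaving out a library kept the call in 191 of 192 cases (PDZRN3 with DESeq2 was the exception), and leaving out a library kept it in 282 of 288 (PDZRN3 and PRKCI lost it, FSTL1 gained it). In CHL1 no named gene that was called changed sign. Uncalled ones did with a library left out: without parental replicate 3 CELSR3 gave 0.026 (-0.049 with all), TGFBR2 0.017 (-0.074) and PLSCR1 0.020 (-0.0074), and PLSCR1 gave 0.041 without resistant replicate 3. At these depths 3 counts stand for 0.101 to 0.118 CPM, which limits members such as WNT5A in CHL1.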
